A study of Homo sapiens with 4 samples.

Results

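The genes described here are 37 human genes for heat shock proteins, their cochaperones, the cytosolic chaperonin TRiC and the transcription factors that control them. They were taken by symbol from a list set by gene function, but chosen with earlier results of these data known. The shares of members given below are therefore descriptions. All 37 were found among the 28278 gene symbols of the deposited count table, and all 37 passed the filter on low counts that left 16900 genes for testing. Mean levels over the 4 libraries ran from 0.908 CPM (counts scaled to a common library size) for CRYAB to 3163 CPM for HSPA8, and 33 of the 37 genes had a mean of at least 50 CPM.

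Chaperones bind proteins that are unfolded or only partly folded, and keep them from clumping until they fold or are degraded. HSP70 proteins take up short unfolded stretches with the help of J-domain proteins, nucleotide exchange factors release them, HSP90 proteins act later on clients such as kinases and steroid receptors, and TRiC folds actin and tubulin inside a closed chamber. Heat, proteotoxic drugs and oxidants free heat shock factor 1 (HSF1) from its chaperone partners, and it then binds heat shock elements, inverted repeats of the unit GAA upstream of its target genes. Many tumour cells, hepatocellular carcinoma included, keep a high level of several of these proteins.

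The 4 libraries came from cells labelled HepG2, a hepatoblastoma-derived line that the labels list as human hepatocellular carcinoma, and held polyA RNA. Per the labels, lentiviruses delivered a Control short hairpin RNA, ATF7IP shRNA-1, ATF7IP shRNA-2 or a SETDB1 shRNA, and every culture, Control included, received Sorafenib (10 µM), a multikinase inhibitor, for 48 h. SETDB1 is an H3K9 methyltransferase and ATF7IP is its nuclear partner, which protects SETDB1 from degradation. The groups are therefore Control (1 library), ATF7IP knockdown (2 libraries, 1 per hairpin) and SETDB1 knockdown (1 library, 1 hairpin), with no untreated cells among them. The study asked how gene transcription under the drug differed after each knockdown.

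Library totals lay between 70236882 and 73791097 counts. ATF7IP stood at 59.1 CPM in Control, 18.3 and 18.8 CPM under hairpins 1 and 2 and 97.8 CPM in SETDB1 knockdown. SETDB1 stood at 47.7, 52.1, 46.8 and 11.99 CPM in the same order, so each target stood lower in its own knockdown than in any other library. The cell line label did not match its markers. Of 15 genes of hepatocyte-derived tumours, 7 were at 0 counts in all 4 libraries (ALB, APOB, APOH, AFP, TTR, FGA and GPC3), 0 reached 1 CPM in any library, and the summed level was 0.411 to 0.9 CPM. Of 11 stellate and fibroblast markers 7 reached 1 CPM (0 were at 0 in all libraries). Their summed level was 495 CPM in Control, 271 and 236 CPM under the ATF7IP hairpins and 307 CPM in SETDB1 knockdown. Most of the Control sum came from COL3A1, at 335.5 CPM, and LUM, at 81.6 CPM. COL1A2, PDGFRA, THY1 and LRAT stayed under 1 CPM in every library, so not all of the list was expressed. Of the 9 markers tested, 8 had a fitted log2 fold change below 0 in ATF7IP knockdown and 7 in SETDB1 knockdown, each against Control. Of 8 endothelial markers 0 reached 1 CPM, with KDR, LYVE1 and CLEC4G at 0 throughout, and of 8 immune markers 2 did, chiefly CD68, with a summed level of 22.8, 25.1, 27.8 and 43.1 CPM. All results below are for the libraries labelled HepG2. In bulk RNA, fewer cells of a type and less RNA per cell cannot be told apart.

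The upstream sequences of the chaperone genes are shown first, because HSF1 binds heat shock elements upstream of its target genes. HSF1 binding and activity were not measured. Each window was the 250 bases upstream of a RefSeq start of the gene (GRCh38.p14, the assembly that the submitters name as hg38). An entry was present for 33 of the 37 genes, and HSF1, CRYAB, ST13 and FKBP4 had none. A 3-unit heat shock element was taken as GAA, any 2 bases, TTC, any 2 bases, GAA, or the same element on the other strand, TTC, any 2 bases, GAA, any 2 bases, TTC. It was found in 4 of the 33 upstream windows, against 120 of all 27305 windows of that length (0.440%). The members with a match were HSPA6, HSPA8, DNAJB6 and CHORDC1. In the lines below, capitals mark the bases that belong to a match, and each sequence is given 5′ to 3′ on the gene's own strand.
CHORDC1, chr11:90223083-90223112, minus strand: ccgGAAAATTCGCGAAGGTTCCTGAAacgc
HSPA8, distal match, chr11:123062345-123062374, minus strand: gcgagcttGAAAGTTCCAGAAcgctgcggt
HSPA8, proximal match, chr11:123062170-123062199, minus strand: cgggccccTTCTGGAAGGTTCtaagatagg
DNAJB6, chr7:157336865-157336894, plus strand: agagccgaGAACCTTCGCGAAggtggggcg
HSPA6, chr1:161524440-161524539, plus strand: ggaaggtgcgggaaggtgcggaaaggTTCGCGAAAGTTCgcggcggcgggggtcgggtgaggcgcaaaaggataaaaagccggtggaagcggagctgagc
CHORDC1 carried 3 overlapping matches that together covered 23 bases, from 60 to 38 bases before its start. The HSPA8 matches began 230 and 55 bases before the start used for that gene. The HSPA6 match began 74 bases before its start and the DNAJB6 match 131 bases before its start. Both HSPA8 matches lie inside the full annotated span of HSPA8. The printed CHORDC1 and HSPA8 stretches overlap annotated exons.

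The shorter 2-unit form with the units head to head (GAA, any 2 bases, TTC) was present in 10 of the 33 members, against 5.85% of all windows, and a 3-unit match always contains it. The tail-to-tail form (TTC, any 2 bases, GAA), also contained in every 3-unit match, was present in 4 of 33, against 6.72%. HSPA1A and HSPA1B, neighbours 9795 bases apart on chromosome 6, had a head-to-head pair and no 3-unit match. Their stretches are printed because the genes are near copies of each other.
HSPA1A, chr6:31815426-31815455, plus strand: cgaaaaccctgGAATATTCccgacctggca
HSPA1B, chr6:31827622-31827651, plus strand: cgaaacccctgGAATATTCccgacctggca
The stretches were identical at 29 of 30 bases, with the difference A6C (HSPA1A base, position counted from 1 at the 5′ end, HSPA1B base). TATAAA, searched on the gene's strand, was present in 3 of the 33 members (HSF2, HSPA1A and HSPA1B), against 7.17% of all windows. CCAAT on either strand was present in 11 of 33, against 33.04%. These matches describe letters in a window, not binding. For HSP90AA1 the window lies upstream of its most distal annotated start. The windows of HSPA8, HSPA2, DNAJB1 and CCT5 lie inside the annotated span of the gene, and that of CCT4 partly does.

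Against Control, most chaperone genes stood higher in SETDB1 knockdown, and the highest values were those of 4 cytosolic HSP70 and HSP90 genes. HSPA1A was 2.33-fold, HSPA1B and HSP90AA1 were each 2.24-fold and HSPA8 was 1.95-fold the Control level, while TRiC, the mitochondrial HSP70 and the heat shock factors themselves stood near Control. The fitted log2 fold change was above 0 for 33 of 37 members, with a median of 0.47, against 49.5% above 0 and a median of -0.001 over all genes tested. At least 1.5-fold higher were 12 of 37 members (HSPA1A, HSPA1B, HSP90AA1, HSPA8, HSPE1, CHORDC1, DNAJB1, DNAJA4, HSPH1, HSPA4L, HSPA2 and FKBP4), where 10.4% of all genes were. At least 1.5-fold lower was 1 member, CRYAB, where 11.3% of all genes were. Just inside the 1.5-fold line was FKBP4, at 1.5-fold, and just outside it were STIP1 and BAG3, each at 1.47-fold.

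No single chaperone gene passed the test in this comparison. edgeR's quasi-likelihood test with Benjamini-Hochberg adjustment over all genes called 0 of 37 members at an adjusted p under 0.05, where it called 0.0710% of all genes, and the lowest adjusted p among the members was 0.926. At an unadjusted p under 0.05 were 8 of 37 members, where 4.71% of all genes were. DESeq2 and limma-trend also called 0 of 37, where they called 46 and 6 of all 16900 genes. Control and SETDB1 knockdown have 1 library each, so these p-values measure only the spread between the 2 ATF7IP hairpin libraries, which Control and SETDB1 knockdown are assumed to share.

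The members are abundant genes, and few abundant genes lay that far from Control. Among genes with a mean of at least 50 CPM, 10 of 33 members were at least 1.5-fold higher in SETDB1 knockdown, where 1.74% of all 5051 such genes were. Of the 33, 0 were at least 1.5-fold lower, where 3.41% of such genes were. Of the 78 genes at 1000 CPM or more in Control, 8 were members. Of those 78, 5 were at least 1.5-fold higher in SETDB1 knockdown: HSPA1A, HSP90AA1, HSPA1B, HSPA8 and UBB, a polyubiquitin gene that is not a member. The SETDB1 knockdown library was the highest of the 4 for 26 of 37 members, where it was the highest for 24.6% of all genes tested.

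**Figure D1:**
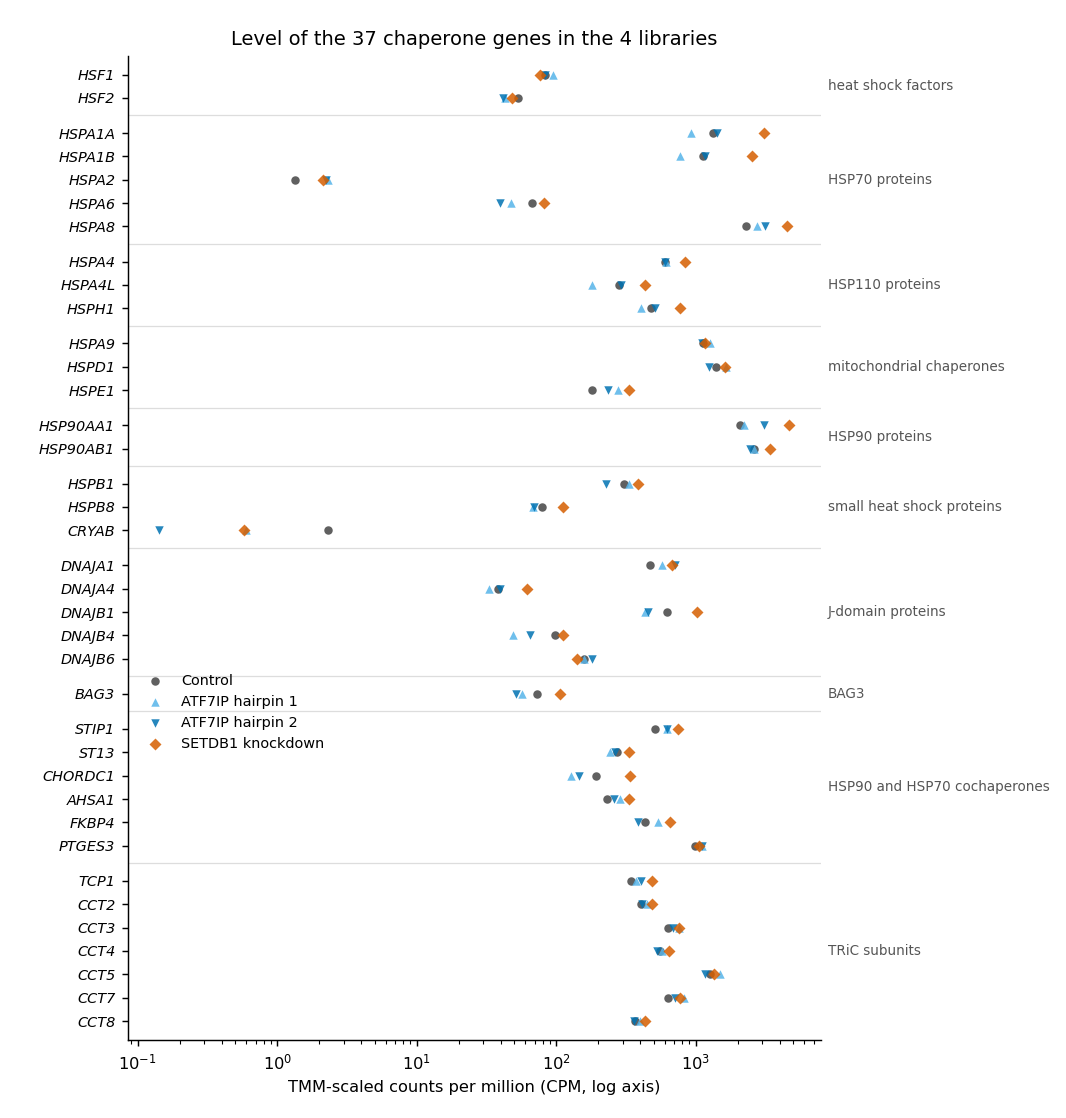
Level of each of the 37 genes in the 4 libraries, in TMM-scaled CPM on a log axis, with genes ordered by role and 1 symbol per library. The SETDB1 knockdown diamond is the rightmost symbol for 26 genes, and CRYAB and HSPA2 lie far below the others.

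The heat shock factors showed no such difference. HSF1, the factor that drives the acute heat shock response, stood at 83.5 CPM in Control, 95.3 and 82.5 CPM under the ATF7IP hairpins and 77.0 CPM in SETDB1 knockdown. HSF2, which binds similar elements, stood at 52.8, 42.9, 41.5 and 48.0 CPM. Fitted log2 fold changes in SETDB1 knockdown were -0.12 ± 0.28 (SE) for HSF1 and -0.14 ± 0.29 for HSF2, each smaller than its standard error. These are RNA levels, and the state of the HSF1 protein was not measured.

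Among HSP70 genes the stress-inducible pair HSPA1A and HSPA1B stood highest against Control. HSPA1A (chr6:31815543-31817942, 1 exon) stood at 1328 CPM in Control, 922 and 1412 CPM under hairpins 1 and 2 and 3098 CPM in SETDB1 knockdown. HSPA1B (chr6:31827738-31830254, 1 exon) followed the same order at 1131, 776, 1166 and 2530 CPM. In both genes the SETDB1 knockdown library lay above the other 3, and Control lay between the ATF7IP hairpins, which were more than 1.5-fold apart. The fitted log2 fold change in SETDB1 knockdown was 1.22 ± 0.41 for HSPA1A (edgeR adjusted p = 0.926) and 1.16 ± 0.40 for HSPA1B (adjusted p = 0.969). Of the 100-base windows of the HSPA1A transcript 69.9% occur exactly in that of HSPA1B, and 68.8% the other way, so reads could be split between them. Their sum, which does not depend on the split, stood at 2459, 1698, 2578 and 5627 CPM, which is 2.29-fold the Control level in SETDB1 knockdown.

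HSPA8, the constitutive HSP70 that binds clients in unstressed cells, had the highest mean level per transcript length of the members over the 4 libraries, although in Control HSP90AB1 stood above it (979 against 932 CPM per kb). It stood at 2295 CPM in Control, 2751 and 3121 CPM under the ATF7IP hairpins and 4485 CPM in SETDB1 knockdown, so Control was the lowest library and SETDB1 knockdown the highest. Its fitted log2 fold change in SETDB1 knockdown was 0.97 ± 0.38 (edgeR adjusted p = 1.00). Its introns host the small nucleolar RNA genes SNORD14C, SNORD14D and SNORD14E. HSPA6, a strictly inducible HSP70 with low expression in unstressed cells, stood at 66.7, 47.3, 39.5 and 81.2 CPM. Both ATF7IP hairpins lay below Control and SETDB1 knockdown above it. HSPA2, which is best known from the testis, was barely expressed, at 1.35 CPM in Control and 2.12 to 2.32 CPM in the knockdown libraries, and its counting intervals against Control reach 1 or nearly so.

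HSP110 proteins are nucleotide exchange factors for HSP70. HSPH1, the inducible one, stood at 478 CPM in Control, 407 and 513 CPM under the ATF7IP hairpins and 767 CPM in SETDB1 knockdown. HSPA4L stood at 281, 181, 291 and 435 CPM, and its ATF7IP hairpins were more than 1.5-fold apart. HSPA4 stood at 604, 614, 602 and 837 CPM, with Control and both hairpins within a few percent of each other. In all 3 genes the SETDB1 knockdown library was the highest, and the fitted log2 fold changes were 0.68 ± 0.34, 0.63 ± 0.38 and 0.47 ± 0.32.

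The HSP90 genes differed from each other. HSP90AA1, the inducible cytosolic HSP90, stood at 2083 CPM in Control, 2196 and 3085 CPM under hairpins 1 and 2 and 4675 CPM in SETDB1 knockdown. HSP90AB1, the constitutive one, stood at 2618, 2623, 2450 and 3404 CPM. SETDB1 knockdown was the highest library for both, at 2.24-fold and 1.30-fold Control. The fitted log2 fold changes were 1.17 ± 0.41 (edgeR adjusted p = 0.990) and 0.38 ± 0.37. Per kilobase of transcript HSP90AB1 exceeded HSP90AA1 in Control, at 979 against 616 CPM per kb, and stood below it in SETDB1 knockdown, at 1273 against 1384 CPM per kb.

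Of the cochaperones, CHORDC1 stood out. CHORDC1, an HSP90 partner with zinc-binding CHORD domains, is the gene with the 23-base run of heat shock units printed above. It stood at 193 CPM in Control, 127 and 145 CPM under the ATF7IP hairpins and 335 CPM in SETDB1 knockdown. Both ATF7IP libraries were below Control and the SETDB1 knockdown library was above it. Its fitted log2 fold change was 0.80 ± 0.30 in SETDB1 knockdown and -0.50 ± 0.25 in ATF7IP knockdown (edgeR adjusted p = 1.00 and 0.635).

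The remaining cochaperones lay closer to Control. STIP1, which hands clients from HSP70 to HSP90, stood at 510, 621, 619 and 747 CPM. AHSA1, an activator of the HSP90 ATPase, stood at 232, 286, 257 and 329 CPM. In both genes all 3 knockdown libraries were above Control, with SETDB1 knockdown the highest. FKBP4, an immunophilin of steroid receptor complexes, stood at 434, 537, 387 and 653 CPM, with the ATF7IP hairpins on opposite sides of Control. ST13, an HSP70-interacting protein, stood at 273, 241, 265 and 334 CPM. Reads of ST13 could also be counted at ST13P4, a pseudogene copy with 2.67 to 4.64 CPM. PTGES3, the p23 protein that closes the HSP90 cycle, showed little range, at 991, 1104, 1099 and 1051 CPM. Fitted log2 fold changes in SETDB1 knockdown for these 5 genes ran from 0.09 to 0.59.

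J-domain proteins recruit HSP70 to clients, and BAG3 links HSP70 to selective autophagy. DNAJB1, the main stress-inducible J-domain protein of the cytosol, stood at 618 CPM in Control, 432 and 455 CPM under the ATF7IP hairpins and 1022 CPM in SETDB1 knockdown. DNAJB4 stood at 97.6, 48.6, 64.5 and 111 CPM, and BAG3 at 72.7, 56.6, 51.4 and 107 CPM. In these 3 genes the ATF7IP hairpins lay together below Control and SETDB1 knockdown lay above it. Fitted log2 fold changes in SETDB1 knockdown were 0.73 ± 0.32 for DNAJB1, 0.19 ± 0.31 for DNAJB4 and 0.56 ± 0.28 for BAG3.

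The other J-domain genes had other orders. DNAJA1, a general HSP70 partner, stood at 472 CPM in Control and at 577, 705 and 678 CPM in ATF7IP hairpins 1 and 2 and SETDB1 knockdown, so all knockdown libraries were above Control. DNAJA4 stood at 38.0, 33.0, 39.7 and 62.0 CPM, with SETDB1 knockdown alone apart. DNAJB6, a suppressor of polyglutamine aggregation with a 3-unit element in its upstream window, stood at 157, 158, 182 and 142 CPM, the lowest value being that of SETDB1 knockdown. DNAJB1 overlaps TECR and DNAJB4 overlaps FUBP1, as HSF1 overlaps DGAT1, HSP90AA1 overlaps WDR20, TCP1 overlaps ACAT2, CCT3 overlaps TSACC and CCT4 overlaps COMMD1. The use of strand in counting is not given in the sources used here, so reads of such pairs may not have been told apart.

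Small heat shock proteins hold unfolded proteins without ATP. HSPB1 stood at 305 CPM in Control, 333 and 227 CPM under the ATF7IP hairpins and 383 CPM in SETDB1 knockdown. HSPB8, the partner of BAG3, stood at 78.8, 68.3, 68.9 and 112 CPM. SETDB1 knockdown was the highest library in both. CRYAB, the alpha-B crystallin, differed from all other members, with 161 counts in Control and 42, 11 and 41 counts in the knockdown libraries, the hairpin 2 value lying under the floor of 12 counts. Taking about 4 counts per sequenced fragment, Control exceeded hairpin 1, hairpin 2 and SETDB1 knockdown by ratios of 4.06 (95% exact interval 1.99 to 9.10), 14.0 (4.46 to 70.8) and 4.13 (2.03 to 9.27), which cover counting error only. The edgeR adjusted p of CRYAB was 0.276 in ATF7IP knockdown and 1.00 in SETDB1 knockdown. CRYAB overlaps HSPB2 and its read-through locus.

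Mitochondrial chaperones were mostly level across the libraries. HSPA9, the mitochondrial HSP70, stood at 1117, 1266, 1101 and 1154 CPM. HSPD1, the chaperonin HSP60, stood at 1401, 1640, 1249 and 1611 CPM. In both genes SETDB1 knockdown lay between the ATF7IP hairpins. HSPE1, the co-chaperonin HSP10, stood at 180 CPM in Control and at 275, 234 and 332 CPM in the knockdown libraries, with a fitted log2 fold change in SETDB1 knockdown of 0.89 ± 0.31 (edgeR adjusted p = 0.967). HSPD1 and HSPE1 lie head to head on chromosome 2 with 104 bases between their starts, so the partner genes of one shared upstream region had unequal values, at 1.15-fold and 1.85-fold Control in SETDB1 knockdown. The read-through locus HSPE1-MOB4 was at 0 counts in all 4 libraries.

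The 7 TRiC subunits among the members stood close to Control. CCT6A and CCT6B, also TRiC genes, are not members and were counted with the other chaperone genes described below. TCP1 had the largest value of the 7 in SETDB1 knockdown, standing at 345, 375, 403 and 482 CPM. CCT2, CCT3, CCT4, CCT5, CCT7 and CCT8 were at 1.07-fold to 1.22-fold Control in that library. The most abundant of the 7 in CPM, CCT5, stood at 1266, 1482, 1162 and 1350 CPM. For all 7 subunits the fitted log2 fold change in SETDB1 knockdown was above 0, with a median of 0.25 and standard errors of 0.31 to 0.36, so 6 of the 7 values were smaller than their own standard error. The medians by role were 0.97 for HSP70, 0.77 for HSP90, 0.63 for HSP110, 0.53 for cochaperones, 0.52 for J-domain proteins, 0.33 for small heat shock proteins, 0.25 for TRiC, 0.20 for mitochondrial chaperones and -0.13 for the heat shock factors.

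**Figure D2:**
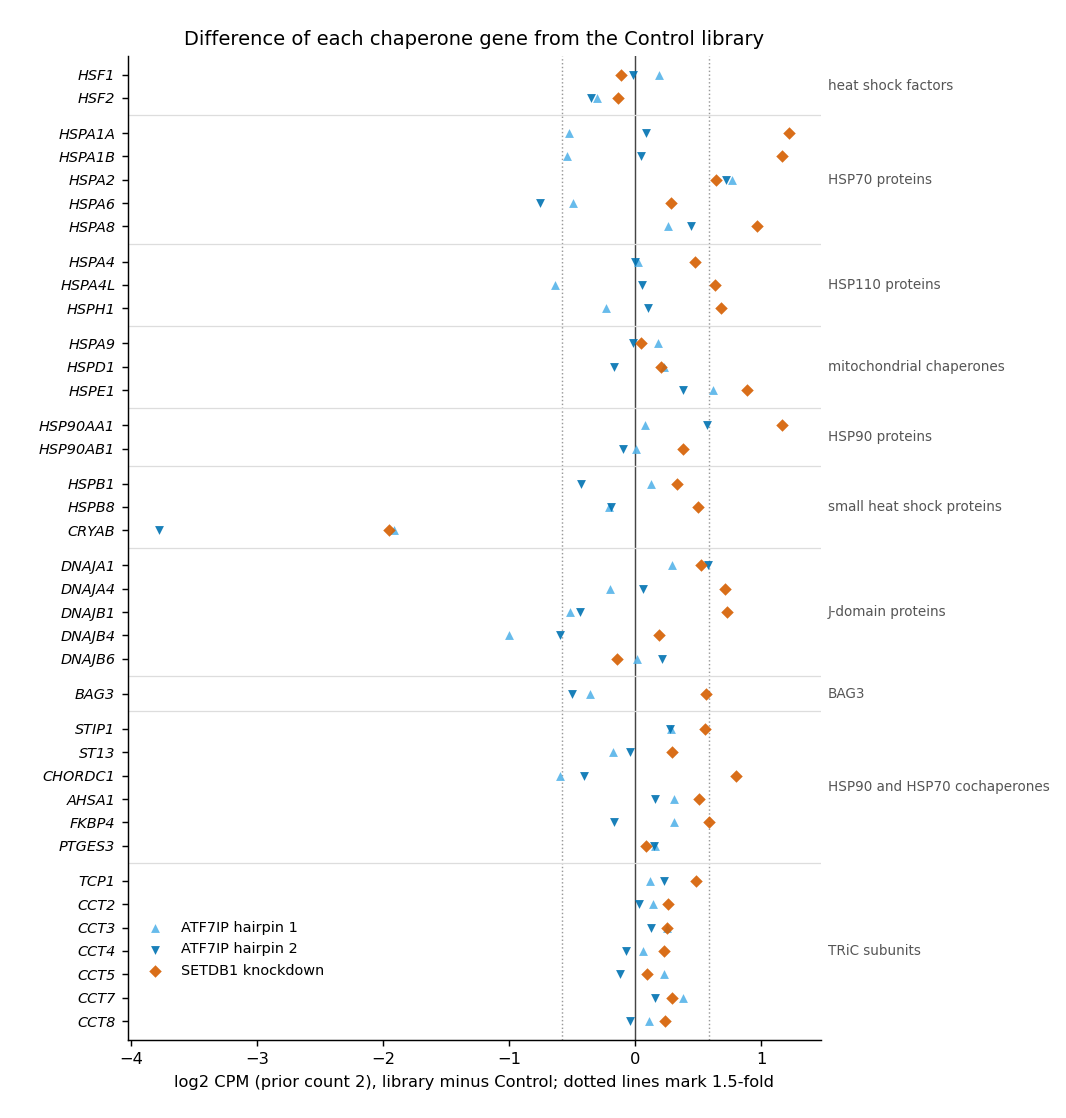
Difference of each knockdown library from Control in log2 CPM (prior count 2), with genes ordered by role, triangles for the ATF7IP hairpins, diamonds for SETDB1 knockdown and dotted lines at 1.5-fold. HSPA1A, HSPA1B, HSP90AA1 and HSPA8 lie farthest to the right in SETDB1 knockdown, and TRiC subunits lie close to 0.

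As a share of each library, the 37 genes held 2.22% of counts in Control, 2.31% and 2.52% under ATF7IP hairpins 1 and 2 and 3.38% in SETDB1 knockdown, a ratio of 1.53 between SETDB1 knockdown and Control. Most of the added share lay in 5 genes, HSP90AA1, HSP90AB1, HSPA8, HSPA1A and HSPA1B, with 0.936%, 0.918%, 1.17% and 1.78% of counts. The 7 TRiC subunits among the members held 0.415%, 0.480%, 0.443% and 0.482%. Other features of the libraries also differed. Ribosomal RNA genes held 0.325% of counts in Control, 0.489% and 0.408% under the hairpins and 0.721% in SETDB1 knockdown, and RN7SL genes held 0.000225%, 0.00118%, 0.00127% and 0.00448%. Both were highest in SETDB1 knockdown, as were the summed immune markers. Ribosomal protein genes, at 4.61%, 5.80%, 4.11% and 4.43%, were not. The part of these features in the chaperone values was not tested.

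**Figure D3:**
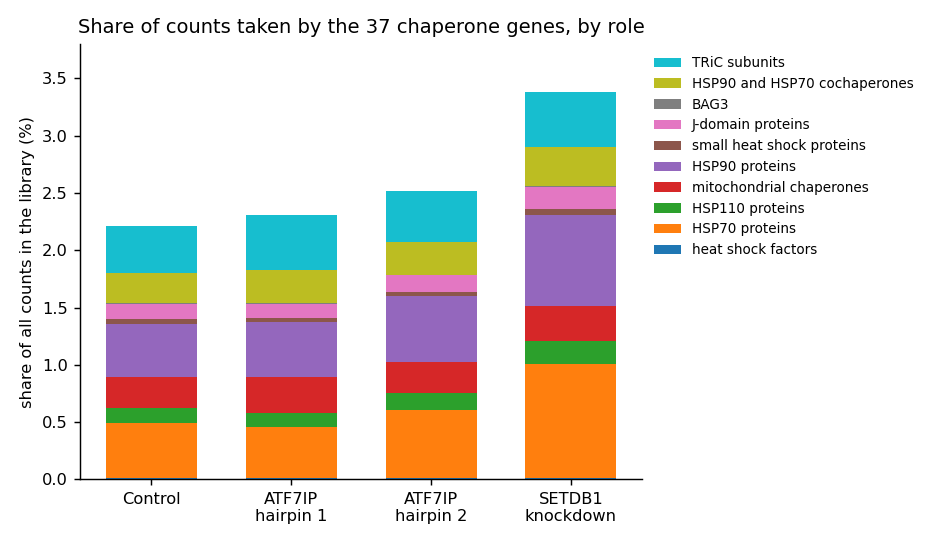
Share of all counts in each library taken by the 37 genes, in percent, stacked by role, with 1 bar per library. The bars reach 2.22%, 2.31%, 2.52% and 3.38%, and the HSP70 and HSP90 segments are larger in SETDB1 knockdown than in the other 3 libraries.

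ATF7IP knockdown gave no common direction. HSPA8, HSPE1, DNAJA1 and STIP1 stood above Control under both hairpins, and HSPA6, DNAJB1, DNAJB4, BAG3 and CHORDC1 stood below it under both. The fitted log2 fold change against Control was above 0 for 20 of 37 members, with a median of 0.04, where 52.0% of all genes were above 0 with a median of 0.02. The median was 0.08 for hairpin 1 and -0.004 for hairpin 2 taken alone. At least 1.5-fold higher under both hairpins was 1 of 37 members, HSPA2, where 6.73% of all genes were. At least 1.5-fold lower were 2, CRYAB and DNAJB4, where 7.67% were. With a mean of at least 50 CPM, 0 of 33 members were higher and 1 was lower, where 0.495% and 3.54% of all such genes were.

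The test called 0 of 37 members in ATF7IP knockdown with edgeR, where it called 0.0769% of all genes. DESeq2 and limma-trend also called 0, where they called 162 and 5 of all 16900 genes. At an unadjusted p under 0.05 were 3 members (CRYAB, DNAJB4 and HSPA6), where 8.94% of all genes were. DNAJB4 had a fitted log2 fold change of -0.79 ± 0.26 (edgeR adjusted p = 0.370), and HSPA6 one of -0.62 ± 0.25 (adjusted p = 0.501). The hairpin libraries were at least 1.5-fold apart for 4 of 37 members, HSPA1A, HSPA1B, HSPA4L and CRYAB, where they were so for 21.5% of all genes. That share includes many genes with few counts, unlike most members. Hairpin and library cannot be told apart, since each hairpin has 1 library.

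Set directly against ATF7IP knockdown, SETDB1 knockdown had higher values for HSPA1A, HSPA1B, CHORDC1 and DNAJB1, at more than 2-fold both hairpins. HSPA1A was 3.36-fold and 2.19-fold the level under hairpins 1 and 2, HSPA1B 3.26-fold and 2.17-fold, CHORDC1 2.64-fold and 2.31-fold, and DNAJB1 2.37-fold and 2.25-fold. At least 1.5-fold higher than both hairpins were 10 of 37 members (the 4 just named with BAG3, DNAJB4, HSPA6, HSP90AA1, DNAJA4 and HSPB8), where 7.99% of all genes were. At least 1.5-fold lower than both were 0 of 37, where 7.35% were. With a mean of at least 50 CPM, 9 of 33 members were higher, where 3.09% of all such genes were. Of the 33, 0 were lower, where 1.54% of such genes were. The SETDB1 knockdown library lay above both hairpins for 27 of 37 members, where it did so for 34.6% of all genes. The median fitted log2 fold change was 0.40 (0.27 against hairpin 1 and 0.48 against hairpin 2), with 32 of 37 above 0, where the median over all genes was -0.02 with 47.8% above 0.

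Whether a member passed here depended on the tool. edgeR called 0 of 37 members, where it called 0.166% of all genes, with 12 members at an unadjusted p under 0.05, where 9.88% of all genes were. The lowest adjusted p was that of CHORDC1, fitted at 1.30 ± 0.25 on the log2 scale (adjusted p = 0.137 by edgeR). DNAJB1 followed at 1.21 ± 0.27 (adjusted p = 0.208), then BAG3 at 0.99 ± 0.23, HSPA1B at 1.38 ± 0.33 and HSPA1A at 1.41 ± 0.34 (adjusted p = 0.223, 0.223 and 0.225). DESeq2 called these same 5 members as higher, where it called 1.02% of all genes, with adjusted p of 0.000507 for CHORDC1, 0.000950 for DNAJB1, 0.00132 for HSPA1A, 0.00153 for HSPA1B and 0.0397 for BAG3. With counts divided by 4, the assumed number of counts per fragment, edgeR called CHORDC1 alone (adjusted p = 0.0285), where it called 0.612% of all genes. limma-trend called 0 of 37, where it called 9 of all 16900 genes.

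**Figure D4:**
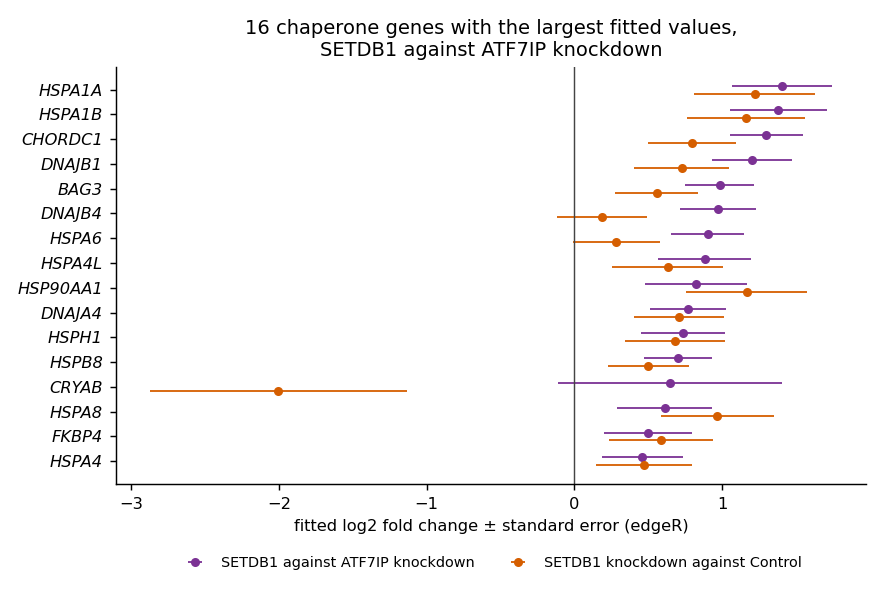
Fitted log2 fold change with its standard error (edgeR) for the 16 members with the largest values in SETDB1 against ATF7IP knockdown, shown for that comparison and for SETDB1 knockdown against Control. All 16 lie above 0 against ATF7IP knockdown, and CRYAB lies below 0 against Control.

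The comparisons share libraries, so their values are given side by side and not as separate evidence. In log2 fold change, ATF7IP knockdown against Control and SETDB1 knockdown against Control gave -0.50 and 0.80 for CHORDC1, -0.48 and 0.73 for DNAJB1, and -0.43 and 0.56 for BAG3. For HSPA8 they gave 0.36 and 0.97, for HSP90AA1 0.34 and 1.17, and for HSPE1 0.50 and 0.89. The first 3 genes thus stood on opposite sides of Control in ATF7IP and SETDB1 knockdown, and the last 3 stood on the same side. Lower under both hairpins and higher in SETDB1 knockdown were 7 of 37 members, where 11.5% of all genes were. Higher in all 3 knockdown libraries were 12 of 37, where 23.1% were. Another 14 were higher in SETDB1 knockdown with the hairpins on opposite sides of Control, where 14.2% were. Both comparisons use the same single Control library.

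**Figure D5:**
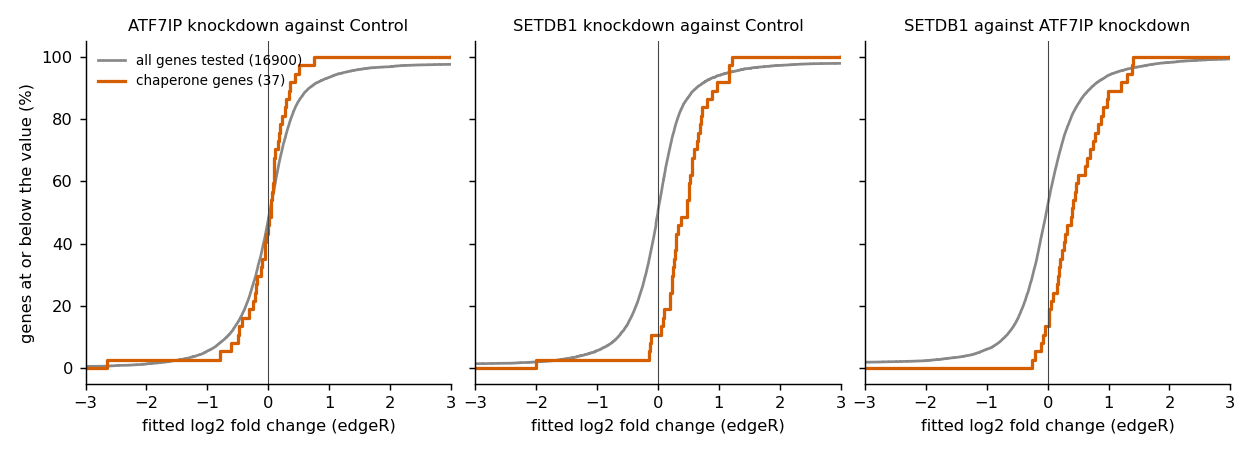
Cumulative share of genes (percent) at or below each fitted log2 fold change, for the 37 members and all 16900 genes tested, in the 3 comparisons, with the axis ending at -3 and 3. The members' line lies to the right of that of all genes over most of its length in both comparisons that use SETDB1 knockdown, and near it in ATF7IP knockdown.

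Other genes of the heat shock pathway were described from a pair of lists, which share 2 genes (DNAJB2 and FKBP5). Of 76 further chaperone, cochaperone and textbook heat shock factor target genes, 71 were tested, and edgeR called 0 higher and 0 lower in each of the 3 comparisons. Over all genes it called 0.0769% in ATF7IP knockdown, 0.0710% in SETDB1 knockdown and 0.166% in SETDB1 against ATF7IP knockdown. At an unadjusted p under 0.05 by edgeR were 3 in ATF7IP knockdown and 0 in SETDB1 knockdown, each against Control. In SETDB1 against ATF7IP knockdown there were 10. The shares of all genes were 8.94%, 4.71% and 9.88% in the same order. limma-trend called 0 as well. DESeq2 called 1, the collagen chaperone SERPINH1, as higher in SETDB1 than in ATF7IP knockdown, where it called 1.02% of all genes. In SETDB1 knockdown against Control the median log2 fold change of the 71 genes was 0.12, with 50 above 0 (49.5% of all genes). Of the 71, 2 were at least 1.5-fold higher (10.4% of all genes) and 3 at least 1.5-fold lower (11.3%). Against ATF7IP knockdown their median was 0.02, with 39 of 71 above 0. The lists differed there. The 20 textbook heat shock factor targets had a median of 0.31 with 15 above 0. The 53 other chaperone genes had a median of -0.02 with 25 above 0, where 47.8% of all genes were above 0. Each list had 5 genes at an unadjusted p under 0.05 by edgeR, where 9.88% of all genes were. Against Control in SETDB1 knockdown the medians were 0.13 (16 of 20 above 0) and 0.12 (35 of 53). UBB stood at 1021, 946, 759 and 1626 CPM. BAG2, a nucleotide exchange factor, stood at 100.2, 120, 103 and 149 CPM, and BAG1, another, at 98.7, 127, 104 and 75.2 CPM, the lowest value being in SETDB1 knockdown. PPP1R15A, which reverses the translational block of stressed cells, stood at 175, 174, 145 and 261 CPM, and ZFAND2A, a proteasome-associated heat shock target, at 27.0, 32.5, 35.6 and 39.9 CPM. HSPB7, a muscle small heat shock protein, stood at 13.5, 10.1, 8.09 and 7.79 CPM, with Control the highest.

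Chaperones of the endoplasmic reticulum and proteasome subunits had smaller medians than the 37 members in SETDB1 knockdown, against Control and against ATF7IP knockdown. The 18 endoplasmic reticulum chaperones had a median log2 fold change of 0.13 in SETDB1 knockdown (14 above 0, where 49.5% of all genes were) and -0.12 in ATF7IP knockdown. Of the 18, 0 were at least 1.5-fold higher than Control in SETDB1 knockdown, where 10.4% of all genes were. PDIA6, a disulfide isomerase, had one of the larger values among them and stood at 597, 561, 455 and 723 CPM. The 31 proteasome subunits had medians of 0.13 (25 above 0) and 0.21. PSMD12 stood at 170, 158, 157 and 230 CPM and PSMB7 at 166, 275, 221 and 218 CPM. In SETDB1 against ATF7IP knockdown the endoplasmic reticulum chaperones had a median of 0.22, with 16 of 18 above 0. Of these, 2 were at least 1.5-fold higher than both hairpins, where 7.99% of all genes were. The proteasome subunits had a median of -0.08, with 9 of 31 above 0, where 47.8% of all genes were. edgeR, DESeq2 and limma-trend each called 0 genes of either list in these comparisons. Over all genes edgeR called 0.0769% in ATF7IP knockdown, 0.0710% in SETDB1 knockdown and 0.166% in SETDB1 against ATF7IP knockdown. At an unadjusted p under 0.05 by edgeR were 3 endoplasmic reticulum chaperones in ATF7IP knockdown, 0 in SETDB1 knockdown and 2 in SETDB1 against ATF7IP knockdown. Among proteasome subunits there were 0 in each. The shares of all genes were 8.94%, 4.71% and 9.88% in the same order.

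Members with and without an upstream match overlapped in their SETDB1 knockdown values. The 4 members that carry one had a median log2 fold change in SETDB1 knockdown of 0.54, from -0.14 (DNAJB6) to 0.97 (HSPA8), and the 29 without one had a median of 0.48, from -0.14 to 1.22. The 10 members with any 2-unit or 3-unit match had a median of 0.51, and the 23 without had one of 0.38. In ATF7IP knockdown the medians were -0.19 with a 3-unit element and 0.04 without, and -0.16 with any match and 0.04 without. These medians are descriptions, with no test. Of 116 genes outside the list whose window holds a 3-unit element 37 were tested, with a median of 0.14 in SETDB1 knockdown and 22 above 0. HSPA1A and HSPA1B, with only the head-to-head pair printed above, had 2 of the 3 largest values of all members, and no match in this window says nothing of elements elsewhere.

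Ranked by mean level per transcript length over all 4 libraries, HSPA8 came first at 1284 CPM per kb, then HSP90AB1 at 1037, HSP90AA1 at 891, HSPA1A at 681, HSPD1 at 601, HSPA1B at 556 and PTGES3 at 553 CPM per kb. Each gap between neighbours in this order was smaller than the range of either gene over the 4 libraries, so neighbours did not differ beyond their spread. The order differed by library. In Control HSP90AB1 came before HSPA8, and HSPD1 before HSPA1A. Under hairpin 1 HSPD1, at 668 CPM per kb, stood above HSP90AA1, at 650.0, and PTGES3, at 575, above HSPA1A, at 372. The median member stood at 197 CPM per kb. At the other end, CRYAB stood at 0.811 and HSPA2 at 0.372 CPM per kb, with DNAJA4 next above at 13.3 CPM per kb. In Control the stress-inducible HSPA1A, at 535 CPM per kb, stood near the mitochondrial chaperonin HSPD1, at 571 CPM per kb. With no untreated cells in the series, an effect of the drug on these levels was not tested.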

How the data were processed

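The 4 polyA RNA libraries were made for the DNBSEQ-G400 platform, per the labels. The authors deposited 1 table of estimated counts (expected counts, whole numbers) per gene symbol. HISAT2 2.2.1, StringTie 2.2.1, DESeq2 1.34.0 and hg38 are named in the submitters' processing notes, and the counting and strand settings are not given in the sources used here. Low values piled up at multiples of 4, so about 4 counts per fragment were assumed, and the floor was 3 fragments (12 counts).

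The members and lists were chosen with earlier results of these data known. edgeR 4.0.16 (R 4.3.3) fitted all 4 libraries in 3 groups with TMM factors, filterByExpr (minimum count 10) and the robust quasi-likelihood test, with Benjamini-Hochberg adjustment over 16900 genes and 1 residual degree of freedom. The hairpin libraries served as replicates. No source says whether cultures were otherwise separate. CPM use library totals scaled by TMM (trimmed mean of M values). Fold rules use log2 CPM with a prior count of 2. All members were named, and from each other list up to 3 genes with the largest SETDB1 differences at a mean of 5 CPM or more. DESeq2 1.42.0 and limma 3.58.1 were alternatives. Transcript lengths came from GENCODE v29, and positions and upstream sequences from RefSeq. The scripts were tested on simulated data.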

Additional observations from a re-analysis of the deposited data

How the results depend on the processing

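The number of genes called was small and moved with the method. In ATF7IP knockdown against Control it was 13, and 3 with DESeq2 size factors, 1 with no filter, 162 with DESeq2, 5 with limma-trend, 83 with counts divided by 4 and 34 without the SETDB1 library. In SETDB1 knockdown against Control it was 12, and 7, 0, 46 and 6 under the first 4 of these. In SETDB1 against ATF7IP knockdown it was 28, and 11, 8, 173, 9 and 89 under the first 5. The cause was not tested. The members' median in ATF7IP knockdown was 0.036, and ranged from -0.004 without hairpin 1 to 0.076 without hairpin 2, so its direction rests on 1 hairpin. Members at least 1.5-fold higher in that comparison numbered 1, and 1 to 2 when a hairpin was left out. Against ATF7IP knockdown the SETDB1 median was 0.401, and 0.273 to 0.475 with 1 hairpin. The SETDB1 median against Control stayed between 0.426 and 0.479 under other scalings, filters, priors and summed copies, and the count of members at least 1.5-fold higher was 11 or 12. No paired analysis was possible because Control and SETDB1 knockdown have 1 library each. With 1 library on 1 or both sides of each comparison, differences between cultures and between knockdowns cannot be told apart. Counting error is largest for CRYAB and HSPA2, the members with the fewest counts.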
